A study of Drosophila melanogaster with 9 samples.

Results

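The small ribosomal subunit protein genes were followed through an RNA immunoprecipitation of Larp, the fly La-related protein, from Drosophila melanogaster ovaries. A list of 27 gene symbols was used, namely 26 RpS genes of the cytoplasmic ribosome and sta, which encodes the same kind of protein under another symbol, and the genes were taken by symbol and not by a measured value. The list does not hold every small subunit gene, so shares and ranks below are those among the listed genes. Of the 27 genes, 26 had an identifier among the 17024 genes of the count lists, and RpS12 did not and is not analysed here. All 9 libraries came from ovaries of the genotype larp::GFP::FLAG, dissected 1 to 3 days post-eclosion. For 3 libraries the RNA came from an immunoprecipitate made with an antibody against FLAG (FLAG IP), for 3 from one made with control mouse IgG (IgG control), and for 3 from 10% of the lysate kept aside before precipitation (input). The tagged protein was thus present in every library, the IgG control served as the control for the antibody, and a precipitation from ovaries without the tag is not analysed here. The labels give neither how the tagged gene was made and driven nor how many ovaries were pooled, and they do not say whether replicates came from separate flies, so that p-values measure the spread between these libraries, which may be technical.

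The small subunit of the ribosome binds the mRNA and decodes it, and the large subunit joins amino acids into the chain. Small subunit proteins sit on the ribosomal RNA in a head, a body and a platform joined by a neck, and the mRNA passes between head and body. In mammals, mRNAs for ribosomal proteins begin with a run of pyrimidines directly after the cap, and the Larp relative LARP1 binds this start and controls translation and stability of these mRNAs. In the ovary, nurse cells make the ribosomes that the egg inherits.

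The libraries held between 11316201 and 17571309 counts, and 3 counts were used as the floor of detection. Scaled by total counts alone, without TMM factors, this floor was worth between 0.171 and 0.265 CPM. Elsewhere CPM is the normalised read count, scaled to a common library size with TMM factors. These factors ran from 0.5498 in FLAG IP replicate 2 to 1.306 in input replicate 1, so the floor differs on that scale. Germline markers together (4 of 6 listed were matched) lay between 1814 and 2445 CPM and follicle cell markers (6 of 6) between 6115 and 14036 CPM, whereas the 4 muscle markers matched reached at most 578 CPM and the fat body, gut, neuron, hemocyte and testis markers at most 57.1 CPM. Fbp1 of the fat body list and sa and dj of the testis list had no count in any library. Libraries with the same replicate number deviated together from their group means, most so for number 3, and FLAG IP replicate 3 stood apart for the small subunit genes. The comparisons below are therefore also given per replicate number and without replicate 3.

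All 25 small subunit genes that could be tested were higher in FLAG IP than in input. Their log2 fold changes ran from 2.07 for RpS18 to 4.19 for RpS21, with a median of 3.32, and edgeR adjusted p-values lay between 9.13e-05 and 0.00159. A gene was called when its adjusted p was under 0.05 and its fold change was at least 2, and across all 7575 genes tested 1.83% were called higher, with a median log2 fold change of 0.01. In each of the 25 genes every FLAG IP value lay above every input value, which held for 9.33% of all genes tested. Fold changes are relative to the TMM scaling, by which 139 genes were called higher and 19 lower. Scaling by total counts moved the median over all genes to -0.88 and that over the 25 genes to 2.36, with 103 genes called higher and 2212 lower, and all 25 were still called higher. Under TMM the 19 became 75 with the replicate number as a block, 145 without FLAG IP replicate 3, 8 without FLAG IP replicate 2, and 7, 10 and 11 without input replicates 1, 2 and 3, and the 139 became 213 without FLAG IP replicate 3. These calls rested on 6 libraries. When both libraries of replicate number 1 were left out, 1 of the 25 genes (RpS14b) was called, among 11 of 7745 genes tested, and without number 2 edgeR called 0 of the 25 and 0 of 7728 genes higher. All 25 still had an unadjusted p under 0.05 in both of these fits, no direction changed, and the medians over the 25 genes were 3.20 without number 1 and 2.94 without number 2. How many of all genes passed that level in these fits was not counted. In the fit of all 6 libraries 1093 of 7575 genes did, 611 of them higher in FLAG IP. Without number 3 all 25 were called, among 232 of 7684 genes, with a median of 3.74.

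The same 25 genes were also called higher in FLAG IP than in IgG control, which measures RNA carried down without the FLAG antibody. The median log2 fold change was 3.31, from 2.36 for RpS2 to 4.18 for RpS21, with edgeR adjusted p-values between 7.76e-05 and 0.000610. Of all 7408 genes tested in this comparison 1.62% were called higher, and 6.92% had all FLAG IP values above all IgG control values, as did all 25 small subunit genes. Without replicate number 1, RpS4 and RpS3A lost the call (edgeR adjusted p = 0.0555 and 0.0661) and 23 genes kept it. Both comparisons use the same 3 FLAG IP libraries and are not independent of each other.

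The IgG control itself did not stand above input. None of the 25 genes was called in either direction by edgeR, against 0% of the 7594 genes tested, and the median was -0.03. A log2 fold change above 0 was found in 6 of 25, beside 3774 of all 7594 genes. With the replicate number as a block it was found in 9 of 25, and with DESeq2 in 11 of 25. At an unadjusted p under 0.05, 2 of the 25 were lower in IgG control, RpS18 and RpS3, and the same 2 were found with DESeq2, which also called 0 of the 25. Across all genes, edgeR gave 465 at that unadjusted level and DESeq2 called 25. The lowest value was that of RpS18 at -0.77 ± 0.25 (adjusted p = 0.747). With the replicate number as a block it was -0.73 with an adjusted p of 0.0205, still under the 2-fold minimum.

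**Figure D1:**
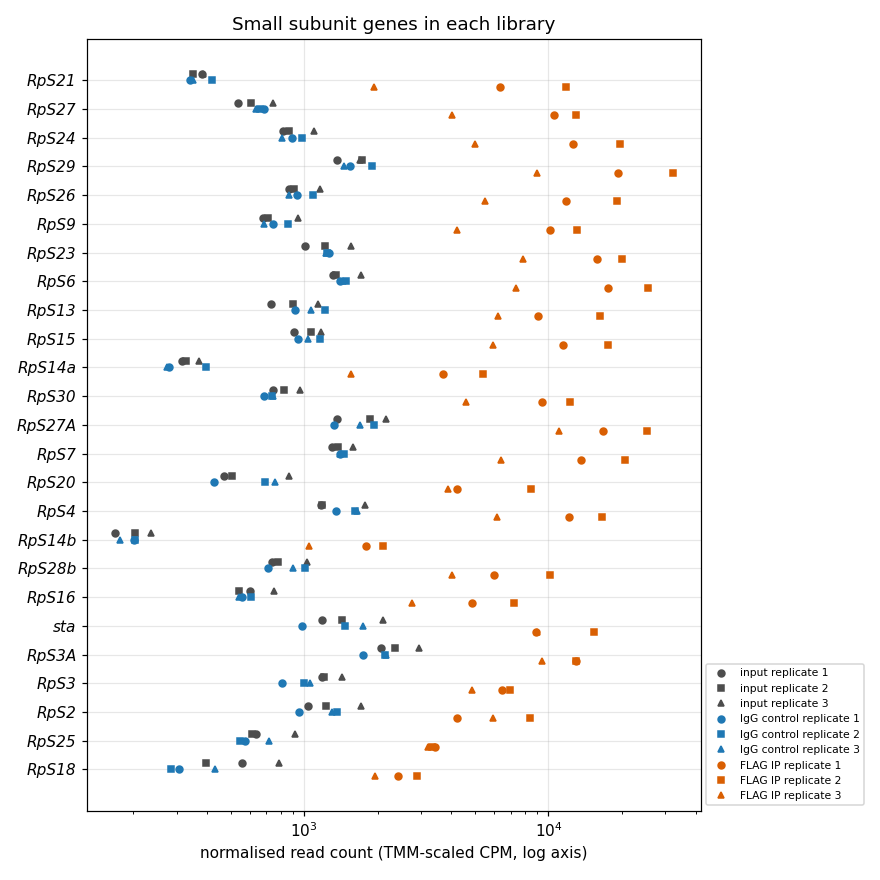
Normalised read count (TMM-scaled CPM, log axis) of the 25 small subunit genes tested in each of the 9 libraries, with 1 point per library, ordered by fold over input. The 3 FLAG IP points of every gene lie to the right of its input and IgG control points, and in 23 of 25 genes the triangle of FLAG IP replicate 3 is the lowest of the 3.

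Taken as one pool, the 26 genes made up 2.89, 3.06 and 3.67% of all counts in the input libraries of replicates 1 to 3 and 2.64, 3.19 and 3.06% in the IgG control libraries. In FLAG IP they made up 15.8, 19.0 and 10.6%. The group means were 3.20 ± 0.409%, 2.97 ± 0.288% and 15.2 ± 4.23% (SD, n = 3 each). Every FLAG IP library was above every other library, and the IgG control and input ranges overlapped. The share in FLAG IP exceeded that in input by 12.0 percentage points and that in IgG control by 12.2 points, each with p = 0.1 in an exact two-sided permutation test, the smallest p that 3 libraries against 3 can give (0.15 after adjustment over the 3 pairs of groups). IgG control and input differed by -0.24 points (exact permutation p = 0.6, adjusted 0.6). Counting error was small beside these spreads, with a Wilson 95% interval of at most 0.023 points to either side.

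RpS21, a small protein that in flies binds the laminin receptor homolog Sta, had the highest log2 fold change of the list with all libraries in the fit. The gene (FBgn0015521, chr2L:2856070-2857029, plus strand) had 6319, 11810.2 and 1938 CPM in FLAG IP, next to 381, 352 and 385 CPM in input and 341, 419 and 350.3 CPM in IgG control. All input and IgG control values fell between 341 and 419 CPM, while the FLAG IP libraries differed widely, with replicate 3 the lowest and replicate 2 the highest. Its log2 fold change was 4.19 ± 0.56 over input (edgeR adjusted p = 0.000609) and 4.18 ± 0.56 over the IgG libraries (adjusted p = 0.000610). This was 18.2-fold over input, but without FLAG IP replicate 2 the log2 fold change was 3.47 over input and 3.48 over IgG control. RpS27 then stood first over input, at 3.54. Within replicate numbers the log2 ratios of RpS21 were 4.05, 5.07 and 2.33, so the lowest FLAG IP library still stood above its own input, and the highest gene of the list was RpS27 in replicate 1, RpS21 in replicate 2 and RpS13 in replicate 3.

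sta (stubarista) encodes the laminin receptor homolog itself, and both proteins bind at the neck between head and body. The gene (FBgn0003517, chrX:1481797-1483413, minus strand) had 8908, 15362 and 8959.9 CPM in FLAG IP, next to 1186, 1428 and 2099 CPM in input and 975, 1475 and 1746 CPM in IgG control. Replicates 1 and 3 of FLAG IP were nearly equal here and replicate 2 was higher, and no FLAG IP value overlapped the other groups. FLAG IP exceeded input by 2.83 ± 0.40 log2 units (edgeR adjusted p = 0.000444) and the IgG libraries by 2.99 ± 0.38 (adjusted p = 0.000126). Per library, the count of RpS21 was 0.321, 0.246 and 0.183 times that of sta in input and 0.709, 0.769 and 0.216 times in FLAG IP (exact two-sided permutation p = 0.300, n = 3 each), and the ranges overlapped.

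RpS27 came next to RpS21. It encodes a zinc-binding protein of the platform, and its gene (FBgn0039300, chr3R:25245955-25247514, minus strand) had 10572, 13006 and 4043 CPM in FLAG IP, next to 535, 603 and 748 CPM in input and 684, 658 and 636 CPM in IgG control. Replicate 3 was again the lowest FLAG IP library, at several times the highest input value. The log2 difference from input was 3.89 ± 0.45 (edgeR adjusted p = 0.000265), and from IgG control 3.81 ± 0.43 (adjusted p = 8.38e-05).

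RpS24, a body protein, was the third. The gene (FBgn0261596, chromosome arm 2R) had 12567, 19554 and 4979.7 CPM in FLAG IP, next to 815, 866 and 1094 CPM in input and 888, 982 and 814 CPM in IgG control. Input and IgG control overlapped with each other, and FLAG IP overlapped with neither. Its log2 fold change was 3.76 ± 0.49 over input (edgeR adjusted p = 0.000283) and 3.80 ± 0.47 over the IgG libraries (adjusted p = 0.000103).

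At the other end of the order stood 5 genes, RpS3A, RpS3, RpS2, RpS25 and RpS18, whose log2 fold changes over input lay between 2.07 and 2.28. The next gene above them was sta at 2.83, and this step of 0.56 was wider than the standard error of either neighbour. The other 23 of the 24 steps in the order were smaller than both standard errors. These standard errors include variation between libraries that the genes share. They do not measure the spread of a difference between genes, and no such difference was tested here. The 5 genes were noticed by their values and the step was not tested. Against IgG control the order had no such step, since RpS18 at 2.83 stood directly below RpS4 at 2.93.

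RpS18, a head protein near the contact with the large subunit, was the lowest against input. Its gene (FBgn0010411, chromosome arm 2R) had 2423, 2899.8 and 1948 CPM in FLAG IP, next to 557, 397 and 792 CPM in input and 308, 285 and 432 CPM in IgG control. Input ranged widely, and the IgG control values were low, with replicates 1 and 2 under all input values. FLAG IP exceeded input by 2.07 ± 0.30 log2 units (edgeR adjusted p = 0.000659) and the IgG libraries by 2.83 ± 0.28 (adjusted p = 7.76e-05). It ranked last of 25 against input and above RpS3, RpS3A, RpS25 and RpS2 against IgG control.

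On the TMM scale, RpS25, another head protein, had the narrowest range of FLAG IP values among the 25 genes. The gene (FBgn0086472, chr3R:11215028-11216287, minus strand) had 3431, 3323 and 3219 CPM in FLAG IP, next to 634, 609 and 921 CPM in input and 569.6, 544 and 719.9 CPM in IgG control. Its 3 FLAG IP values lay within a narrow band on this scale, and it was the only gene of the 25 whose highest FLAG IP library was then replicate 1. Before scaling its counts were 29394, 20819 and 35747, so both traits depend on the TMM factors. The log2 difference from input was 2.22 ± 0.28 (edgeR adjusted p = 0.000273), and from IgG control 2.45 ± 0.27 (adjusted p = 8.31e-05).

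RpS2 and RpS3 line the channel through which the mRNA enters the small subunit. RpS2 (FBgn0004867, chr2L:9896265-9897552, minus strand) had 4207, 8411 and 5918 CPM in FLAG IP, next to 1033, 1224 and 1714 CPM in input and 956, 1363 and 1303 CPM in IgG control, and its lowest FLAG IP library was replicate 1, as for sta. Its log2 fold change was 2.24 ± 0.36 over input (edgeR adjusted p = 0.00159) and 2.36 ± 0.34 over the IgG libraries (adjusted p = 0.000420). RpS3 (FBgn0002622, chr3R:23358812-23360207, plus strand) had 6447, 6992 and 4847 CPM in FLAG IP, next to 1187, 1207 and 1430.3 CPM in input and 809, 1001 and 1053 CPM in IgG control. All 3 IgG control values of RpS3 lay below its input values, and all 3 FLAG IP values lay above both. FLAG IP exceeded input by 2.27 ± 0.31 log2 units (edgeR adjusted p = 0.000392) and the IgG libraries by 2.68 ± 0.31 (adjusted p = 8.38e-05).

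**Figure D2:**
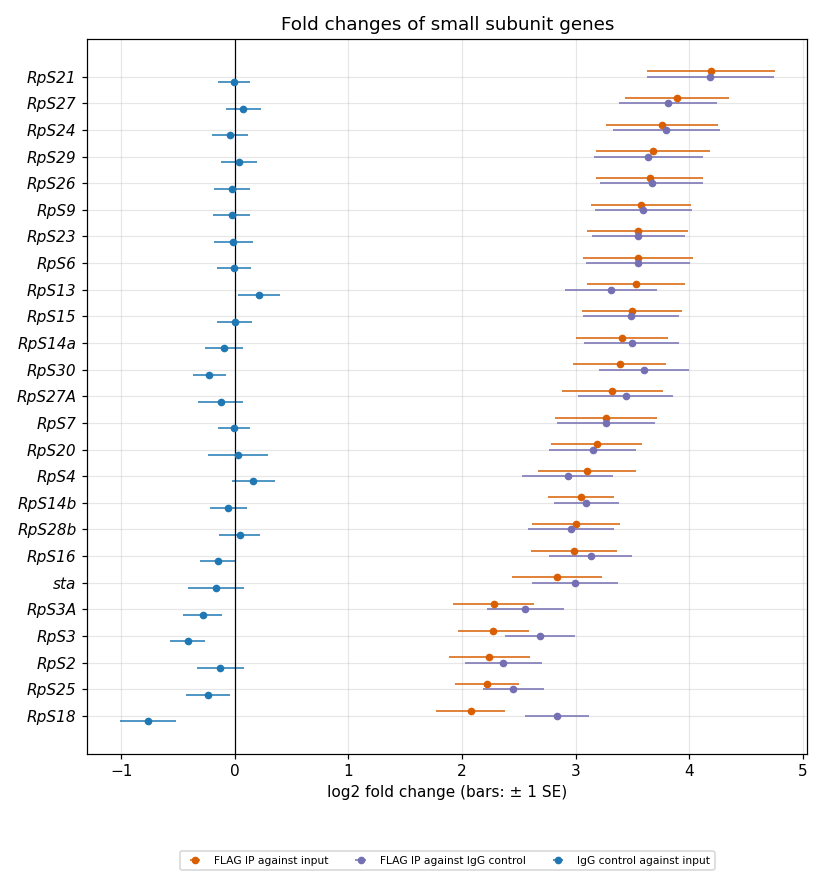
Log2 fold changes of the 25 small subunit genes with 1 standard error to either side, for FLAG IP against input, FLAG IP against IgG control and IgG control against input (edgeR, 3 libraries a group). The first 2 sets lie between 2.07 and 4.19, and IgG control against input lies between -0.77 for RpS18 and 0.21 for RpS13.

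RpS14 is encoded by a pair of neighbouring genes on the X chromosome that in flies make the same platform protein. RpS14a (FBgn0004403, chrX:7933742-7934677, plus strand) ends 220 bases before RpS14b (FBgn0004404, chrX:7934898-7935792, plus strand) begins, and both have 453 coding bases. Reads of near-identical copies can be split between them or dropped in counting, so their separate values are uncertain. RpS14a had 3713, 5371 and 1556 CPM in FLAG IP, next to 317, 329 and 372 CPM in input and 280.2, 395 and 275 CPM in IgG control. RpS14b had 1784, 2109 and 1050.2 CPM in FLAG IP, next to 168, 203 and 236 CPM in input and 202, 204 and 177 CPM in IgG control. In both genes the FLAG IP values stood clear of the others, with replicate 3 the lowest. RpS14a was 3.40 ± 0.41 above input on the log2 scale (edgeR adjusted p = 0.000265) and 3.49 ± 0.42 above IgG control (adjusted p = 0.000103). RpS14b was 3.04 ± 0.29 above input (edgeR adjusted p = 9.13e-05) and 3.09 ± 0.28 above IgG control (adjusted p = 7.76e-05). Counts of RpS14a were 1.88, 1.62 and 1.57 times those of RpS14b in the input libraries and 2.08, 2.55 and 1.48 times in the FLAG IP libraries, and these ranges overlapped (exact two-sided permutation p = 0.400). Summed, the pair had 485, 532 and 608 CPM in input and 5497, 7479.8 and 2606 CPM in FLAG IP.

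RpS28, which lies near the point where the mRNA leaves the subunit, also has 2 gene copies, and only one of them gave counts. RpS28a (FBgn0039739, chr3R:30022345-30022648, minus strand), a gene with 1 exon, had 0 counts in all 9 libraries and was not tested. The floor of 3 counts was worth at most 0.265 CPM, in the shallowest library, by total counts without TMM factors. RpS28b (FBgn0030136, chrX:9554623-9555661, plus strand) had 5996, 10137 and 4039.6 CPM in FLAG IP, next to 736, 783 and 1026 CPM in input and 713, 1004 and 898 CPM in IgG control. Its FLAG IP values were all above the rest, and input and IgG control overlapped. The log2 difference from input was 3.00 ± 0.39 (edgeR adjusted p = 0.000275), and from IgG control 2.95 ± 0.38 (adjusted p = 0.000129).

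RpS27A and RpS30 are made as fusions, RpS27A behind ubiquitin and RpS30 behind a ubiquitin-like protein, from which the ribosomal part is cut off. RpS27A (FBgn0003942, chr2L:10408352-10410456, plus strand) had 16791, 25433 and 11041 CPM in FLAG IP, next to 1361, 1864 and 2165 CPM in input and 1325, 1929.6 and 1686 CPM in IgG control. It was the most counted gene of the list per length in every group, and its FLAG IP libraries did not overlap the others. Its log2 fold change was 3.32 ± 0.44 over input (edgeR adjusted p = 0.000316) and 3.44 ± 0.42 over the IgG libraries (adjusted p = 9.69e-05). An exon of RpS27A overlaps an exon of Ip259 on the same strand, and Ip259 itself was 1.99 above input on the log2 scale at 190.2 CPM in input (edgeR adjusted p = 0.000271); the part of shared reads in either value was not tested. RpS30 (FBgn0038834, chr3R:20850516-20851427, plus strand) had 9369, 12241 and 4585 CPM in FLAG IP, next to 747, 827 and 963 CPM in input and 682, 739.9 and 747 CPM in IgG control. Its IgG control values lay just under its input values and its FLAG IP values far above both. FLAG IP exceeded input by 3.39 ± 0.41 log2 units (edgeR adjusted p = 0.000265) and the IgG libraries by 3.60 ± 0.40 (adjusted p = 8.31e-05).

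RpS6, the body protein that S6 kinase phosphorylates in response to growth signals, was among the genes with the most counts in FLAG IP. The gene (FBgn0261592, chrX:7899624-7901331, minus strand) had 17479.7, 25488 and 7354 CPM in FLAG IP, next to 1308, 1352 and 1711 CPM in input and 1403, 1479 and 1447 CPM in IgG control. Input and IgG control overlapped, and even the lowest FLAG IP value, that of replicate 3, was clear of them. The log2 difference from input was 3.54 ± 0.48 (edgeR adjusted p = 0.000386), and from IgG control 3.55 ± 0.46 (adjusted p = 0.000142). The annotation places exons of CR33222 and of snoRNA:Or-aca2 over exons of RpS6 on the same strand, and neither of these had a count in input or FLAG IP.

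The remaining 11 genes are given by their mean level and fold, and all of them were called in both comparisons. In the body, RpS9, at the mRNA entry, went from 779.5 CPM in input to 9164 CPM in FLAG IP (log2 fold change 3.57 ± 0.44). RpS23, a protein of the decoding centre, went from 1259.9 to 14528 CPM (3.54 ± 0.44). RpS7 went from 1423 to 13507 CPM (3.27 ± 0.45) and RpS4 from 1374 to 11644 CPM (3.10 ± 0.43). The 4 body genes thus spanned 3.10 to 3.57. Their standard errors overlapped, but these do not measure a difference between genes of the same libraries, which was not tested.

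On the platform, RpS26, which is near the mRNA exit, went from 979 to 12119.5 CPM (log2 fold change 3.65 ± 0.47) and RpS13 from 925 to 10544 CPM (3.53 ± 0.43). RpS3A, which contacts the initiation factor eIF3, went from 2456 to 11785 CPM (2.28 ± 0.36) and so had the highest level in input of these and the lowest fold. Among the head proteins, RpS29, a zinc-binding protein, went from 1593 to 20184 CPM (3.68 ± 0.50). RpS15 went from 1049 to 11671 CPM (3.49 ± 0.44), RpS20 from 614 to 5514 CPM (3.18 ± 0.40, or 2.60 without replicate number 2) and RpS16 from 632 to 4947 CPM (2.99 ± 0.38).

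Grouped by where the proteins sit, every region held called genes. The 9 head genes tested had a median log2 fold change over input of 3.00 (2.07 to 3.68), the 8 body genes 3.46 (2.24 to 3.76) and the 6 platform genes 3.47 (2.28 to 3.89). The 2 neck genes were RpS21 and sta, the highest and the sixth lowest of the list. Head, body and platform each held at least 1 of the 5 lowest genes, and their ranges overlapped. The median over all genes tested was 0.01.

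Other genes of the ribosome were taken as a measure of how far this extends. Of 44 large subunit genes tested, 43 were called higher against input and 43 against IgG control, with medians of 3.00 and 3.14 beside 3.32 and 3.31 for the small subunit genes. The difference between the subunits was not tested. The gene not called was RpL22, at 0.44 ± 0.26 against input (edgeR adjusted p = 0.492) and 1.02 ± 0.26 relative to IgG control (adjusted p = 0.0894). Of 10 assembly and partner genes listed, 6 were matched and tested, and 1 was called. Rack1, a WD-repeat protein bound to the head of the small subunit, had 2.92 ± 0.41 against input (edgeR adjusted p = 0.000469) and 3.03 ± 0.38 relative to IgG control (adjusted p = 0.000122), within the range of the 25 structural genes.

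The ribosome assembly factors of the assembly and partner list did not pass. The kinases RIOK1 and RIOK2 and the assembly factors Tsr1, bys and Non3 had log2 fold changes between -0.78 and 0.02 against input, with edgeR adjusted p-values of 0.474 or more. None of the 5 had an unadjusted p under 0.05 in either comparison, and DESeq2 called 0 of them. Of 24 genes for the small subunit of the mitochondrial ribosome, 1 was called against input, mRpS28 at 1.45 ± 0.26 (edgeR adjusted p = 0.00472), and none against IgG control, where the lowest edgeR adjusted p was 0.207 and 3 genes had an unadjusted p under 0.05. DESeq2 called 3 of the 24 against IgG control, mRpS9 and mRpS22 higher and mRpS18A lower. The 2 list medians were -0.03 and -0.02.

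The size of the enrichment differed between replicate numbers. Dividing each FLAG IP library by the input of the same number gave median log2 ratios over the 25 genes of 3.55, 3.90 and 2.15 for replicates 1, 2 and 3. Against the IgG control of the same number they were 3.31, 3.74 and 2.47. All 25 ratios were above 0 in each of these 6 pairs of libraries. On the TMM scale, replicate 3 had the lowest FLAG IP value in 23 genes, the exceptions being sta and RpS2, and replicate 2 the highest in 24. These counts depend on the scaling. The folds also spread less in replicate 3, with a standard deviation across genes of 0.28 beside 0.62 and 0.68 in replicates 1 and 2. Input replicate 3 was the highest input library for the pool, at the share given above, and IgG control replicate 3 lay below it in all 25 genes.

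The order of the genes was similar in the 3 replicate numbers, least so between replicates 2 and 3. Across the 25 genes, log2 ratios over input gave Spearman rank correlations of 0.89 between replicates 1 and 2, 0.84 between 1 and 3 and 0.74 between 2 and 3. Pearson r for the same pairs was 0.90, 0.86 and 0.76. Over IgG control the rank correlations were 0.92, 0.76 and 0.71. Genes are not independent replicates, and the points share libraries, scaling and transcript lengths.

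**Figure D3:**
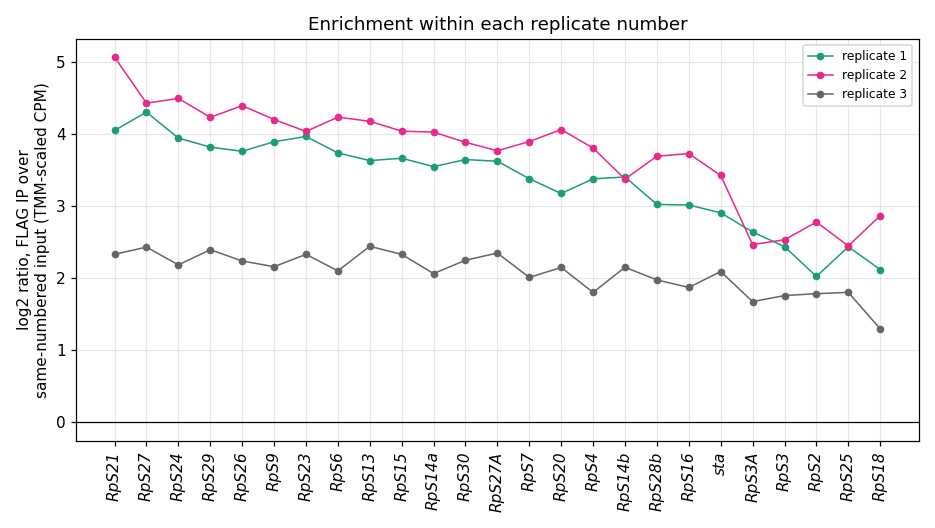
Log2 ratio of FLAG IP over the input of the same replicate number for each of the 25 small subunit genes, 1 line per replicate number, ordered by log2 fold change. All points are above 0, and the line of replicate 3 (median 2.15) lies below the others and is flatter.

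Unequal folds changed the make-up of the counts of the listed small subunit genes. RpS3A was the largest part of them in input, with 9.45 ± 0.121% of the counts of the listed genes (SD, n = 3). It made up 5.45 ± 1.68% in FLAG IP, with 8.21 ± 0.341% in IgG control. RpS3 had 4.95 ± 0.395% in input and 2.80 ± 0.818% in FLAG IP, and RpS2 5.05 ± 0.412% and 2.89 ± 1.39%. In these 3 genes, and in RpS28b, RpS16, RpS25 and RpS18, all FLAG IP shares lay below all input shares. In RpS27, RpS24, RpS26, RpS9, RpS23, RpS13, RpS15 and RpS30 they all lay above. The IgG control shares of RpS3A and RpS3 (3.89 ± 0.269% for RpS3) also lay below all input shares, and those of RpS27, RpS13 and RpS4 above. RpS21 had 1.46 ± 0.246% in input and 2.52 ± 0.986% in FLAG IP, and these ranges overlapped through FLAG IP replicate 3 at 1.46%. Together the 5 genes with the lowest folds held 24.7, 23.6 and 24.98% of the counts of the listed genes in input replicates 1 to 3. They held 20.0, 20.2 and 22.54% in IgG control and 12.5, 10.0 and 19.11% in FLAG IP. The groups did not overlap in this share, and since the 5 genes were picked by their folds it is given without a test.

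**Figure D4:**
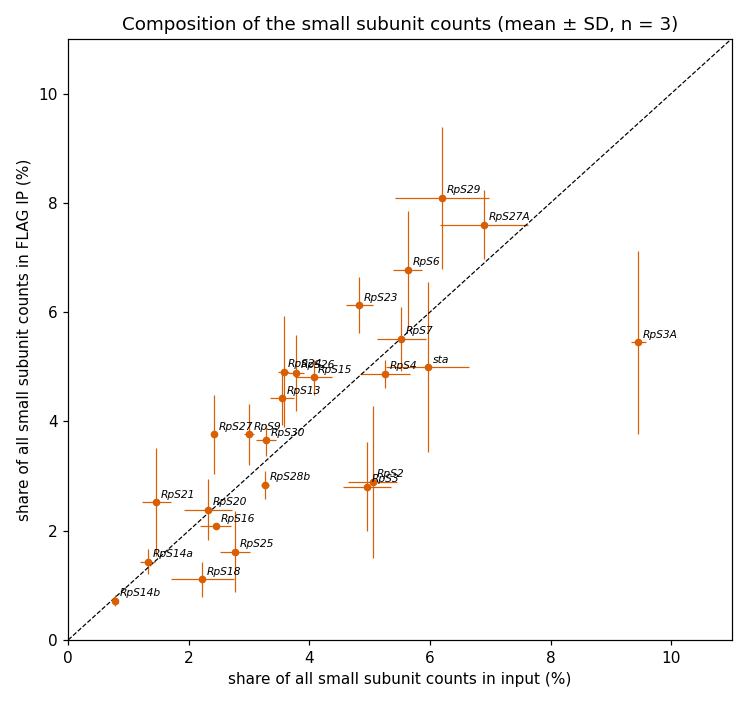
Share of each gene in the counts of all listed small subunit genes in FLAG IP (vertical axis, %) against input (horizontal axis, %), mean with SD over 3 libraries each. Genes under the dashed line of equal shares lost share in FLAG IP, RpS3A by the most, from 9.45 to 5.45%.

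Levels between genes were compared as CPM per kilobase of exon. In a mixed tissue such as the ovary, the number of cells of a type and the RNA per cell cannot be told apart in such levels. RpS27A was first in input (3035), in IgG control (2782) and in FLAG IP (29991 CPM per kilobase). RpS3A was second in input at 1821 CPM per kilobase and number 13 in FLAG IP at 8736. RpS21 moved the other way, from number 23 at 442 to number 16 at 7944 CPM per kilobase, and RpS27 from 18 to 8. RpS14b was lowest among the detected genes in all 3 groups, at 339 CPM per kilobase in input and 2760.0 in FLAG IP. Between the log2 fold change and the log2 input CPM per kilobase, Pearson r was -0.14 across the 25 genes, which share libraries in both measures. With the log2 input CPM not divided by length it was -0.18.

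The annotation of the members gave features that had no part in choosing them. Their canonical transcripts had a median of 865 bases, from 564 for RpS20 to 1812 for RpS26, beside 2062.5 bases over the 7260 protein-coding genes tested against input. The stretch before the start codon had a median of 84 bases, from 26 in RpS25 to 311 in RpS2, beside 159 in all such genes. Of these lengths, the coding length had the strongest relation with the log2 fold change over input, at r = -0.49 across the 25 genes, while whole transcript length gave -0.18, the 3′ UTR 0.16 and the 5′ UTR -0.08. RpS21, RpS27 and RpS24 had 249, 252 and 393 coding bases, and RpS3A, RpS3 and RpS2 had 804, 738 and 801. Other long genes had higher folds, namely sta with 810 coding bases at 2.83, RpS4 with 783 at 3.10 and RpS6 with 744 at 3.54. RpS18 and RpS25, with 456 and 351, were low in fold at a short coding length. These points share libraries and a length that also sets how many reads a transcript yields.

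**Figure D5:**
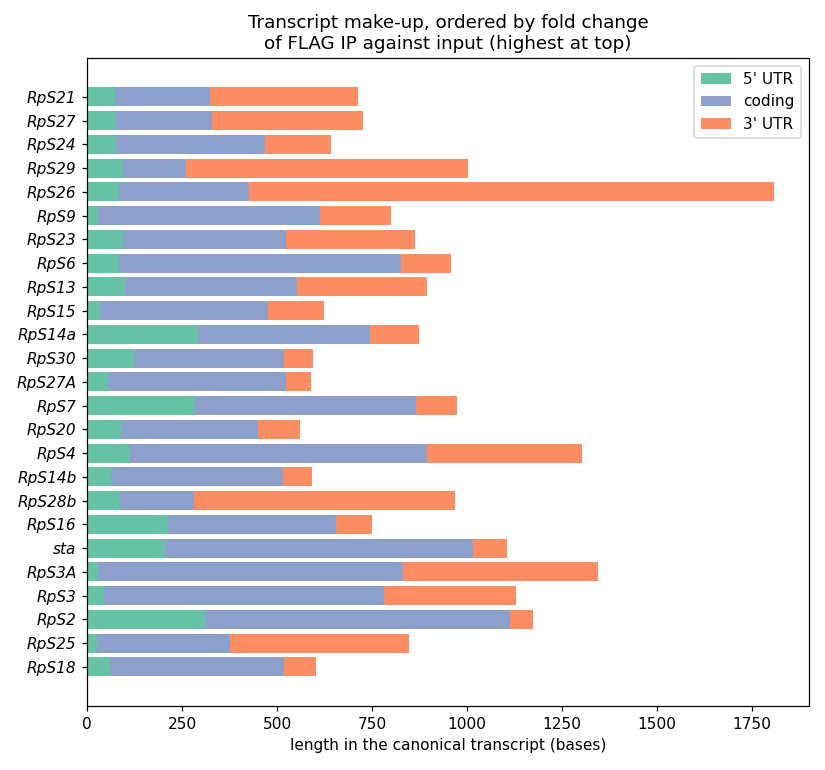
Lengths in bases of the 5′ UTR, coding part and 3′ UTR (stop codon left out) of the canonical transcript of each of the 25 genes, ordered by log2 fold change of FLAG IP against input. Long coding parts such as that of RpS3A (804 bases) occur among the lowest genes, but that of RpS6 (744 bases) is in the upper part, and the long 3′ UTRs of RpS26, RpS29 and RpS28b are spread over it.

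The 25 genes tested lie on 6 chromosome arms, 7 on 3R, 5 each on 2L and X and fewer on 3L and 4, with the remainder on 2R. Of the 25 genes tested, 9 carry a snoRNA gene inside their span, and their median log2 fold change over input was 3.18, beside 3.40 in the 16 without. Exons of 7 genes overlap an exon of another gene, in 5 of them on the other strand only, and the median was 3.49 beside 3.18 in the 18 others. Whether strand was used in counting is not given in the sources used here, so reads of such partners cannot be told apart with certainty. CG17272, which overlaps RpS20 on the other strand, stood at 0.18 on the log2 scale against input while RpS20 stood at 3.18.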

How the data were processed

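The deposited files are 9 lists of whole-number counts per gene, 1 per library, which the authors made, per the labels, from poly(A)-selected, directional libraries (RNA fragmented for 13 minutes). The submitters' processing notes name HISAT2 2.1.0, featureCounts 1.4.6 and the dm6 genome build. How multi-mapping reads and strand were handled is not given in the sources used here. The counts were used as deposited. Symbols came from the Ensembl 115 gene table and annotation (BDGP6 assembly, release 6.54), which matched 16647 of 17024 identifiers. The 377 without a symbol held 5.13 to 12.5% of the counts and stayed in the fits. One of them, the first feature of the count lists, held 0.00650 to 7.89%.

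Each pair of groups was fitted on its 6 libraries with edgeR 4.0.16 (R 4.3.3), using filterByExpr, TMM factors and the robust quasi-likelihood F test, with Benjamini-Hochberg adjustment over all genes tested. A call needed an adjusted p under 0.05 and a 2-fold change. The standard error is the log2 fold change divided by the square root of F. The fits were tested on simulated data. Shares of counts were compared with exact permutation tests. Same-numbered libraries deviated together (r from 0.16 to 0.45 over 6845 genes), so the numbers pair the libraries, and a fit with the number as a block was run as an alternative. Values of single genes are from the fit without the block unless the block is named. No pair of libraries agreed within sampling noise.

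The members and lists were chosen with earlier results of these data known. Full values are given for the 3 highest and 3 lowest members by fold over input, for members not called or not detected, for paralogs and fusion genes, and for RpS6, RpS21, RpS3 and sta, and the others are given by level and fold. The alternatives were DESeq2 1.42.0, other scalings, no filter, all 9 libraries in one fit, the block, and leaving out libraries. Another 3 genes whose symbols fit the pattern are not reported here. No sequences are shown, since none were at hand for these genes.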

Additional observations from a re-analysis of the deposited data

How the results depend on the processing

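No member's log2 fold change in FLAG IP changed sign under any alternative run, and 799 of the 850 gene values under alternatives kept their call, while 51 fell out of it. The number of small subunit genes called against input ranged from 0 to 25 when a replicate number was left out (1 without replicate 1, 0 without replicate 2), with 11, 0 and 232 of all genes called higher without replicates 1, 2 and 3, and against IgG control it ranged from 23 to 25. The cause was not tested. Leaving out any single library kept all 25 in both comparisons. With the replicate number as a block, all 25 were called in each, with median log2 fold changes of 3.24 and 3.20, and the block changed no call of a member. Against input, edgeR adjusted p-values with the block lay between 1.24e-06 and 0.00478, and RpS21 stood at 3.85 in place of 4.19. The block raised the exact p of the differences in share of counts from 0.1 to 0.25, the smallest that 3 pairs can give. Scaling by total counts kept all 25 calls in both comparisons; against IgG control it gave a median of 2.37 over members, with 98 of all genes called higher and 1387 lower, where TMM gave 120 and 1 (5 lower with the block, 20 without FLAG IP replicate 3, 0 without IgG control replicate 1 and 3 without IgG control replicate 2 or 3). DESeq2, other size factors, no filter and the joint fit of 9 libraries called all 25. Leaving out the first feature of the count lists from total-count scaling was chosen after seeing the data. It gave a median over members against input of 2.36. Among the matched members, only RpS28a had no counts, and the reason was not tested.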
